A study of Homo sapiens with 4 samples.

Results

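FGFR1, FGFR2, FGFR3, FGFR4, PDGFRA, PDGFRB, MET, KIT, EPHA2 and EPHB2 are receptor tyrosine kinases, and their transcripts were followed here in 2 human gastric cancer cell lines. The 10 genes were taken by symbol from a deposited table of 58336 genes, and each symbol matched 1 row. RNA of both lines was sequenced in 4 libraries. These were AGS cells given 10 nM estradiol (E2) for 1 day, untreated AGS cells, HGC-27 cells given 10 nM estradiol for 1 day, and untreated HGC-27 cells, with 1 library each. Both lines carry the genotype label WT, and no other agent or allele is named. AGS was derived from a gastric adenocarcinoma and HGC-27 from an undifferentiated gastric carcinoma, so each line stands for the cells of a single tumour. Separate cultures are not recorded for these libraries, and no 2 of them share a line and a treatment. The spread behind p-values is therefore how the estradiol change differed between the lines, pooled over genes, and it may be technical. The p-values do not measure the spread between cultures.

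Receptor tyrosine kinases span the plasma membrane, bind a ligand outside the cell and phosphorylate tyrosines inside it, which recruits adaptors that feed the RAS-MAPK and PI3K pathways. Fibroblast growth factors (FGFs) bind FGFR1 to FGFR4 together with heparan sulphate or a klotho coreceptor, and FGFR2 is a known amplified gene in diffuse gastric cancer. PDGFRA and PDGFRB bind platelet-derived growth factors and are best known from fibroblasts and pericytes, and KIT, their close relative, marks mast cells and the interstitial cells of Cajal of the gut wall. MET binds hepatocyte growth factor (HGF), is activated in part of gastric cancers by amplification, and drives cell scattering. EPHA2 and EPHB2 bind ephrins on neighbouring cells, and EPHB2 is a known Wnt target in the intestinal crypt.

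Total counts were 24597379 to 28734374 per library, and mitochondrially encoded genes took 7.82% to 7.94% of them. The lines carried opposite lineage markers. Of 10 epithelial markers (EPCAM, keratins, claudins and others) 10 were higher in AGS, with summed levels of 5420 and 5210 TPM (counts scaled to the deposited gene length and the library) in the estradiol and control AGS libraries against 42.1 and 39.0 TPM in the HGC-27 pair. Of 9 tested mesenchymal markers 9 were lower in AGS, at summed levels of 4.67 and 3.39 TPM against 1490 and 1460 TPM in HGC-27. EPCAM had 8 and 10 counts in the estradiol and control libraries of HGC-27, so this epithelial surface marker was nearly absent there. The part of these markers in the receptor differences was not tested. Endothelial markers summed to at most 0.211 TPM in any library, with KDR at 0 in all, and leukocyte markers to at most 6.15 TPM, with CD3E at 0 in all.

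The receptors that filled each line were not the same. Per gene length, EPHA2 and MET led in AGS, and FGFR3 and FGFR4 led in HGC-27. EPHA2 made up 65.3% and 63.6% of the summed TPM of the 10 receptors in the estradiol and control AGS libraries, against 11.3% and 11.7% in the HGC-27 pair. FGFR3 made up 3.58% and 4.03% in AGS, against 30.4% and 32.6% in HGC-27. MET took 18.9% and 19.5% in AGS and 12.4% and 11.9% in HGC-27. The summed level was 448 and 406 TPM in the estradiol and control AGS libraries, and 201 and 196 TPM in the HGC-27 pair. These are parts of a sum, so a receptor's share also falls where another receptor is high.

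**Figure D1:**
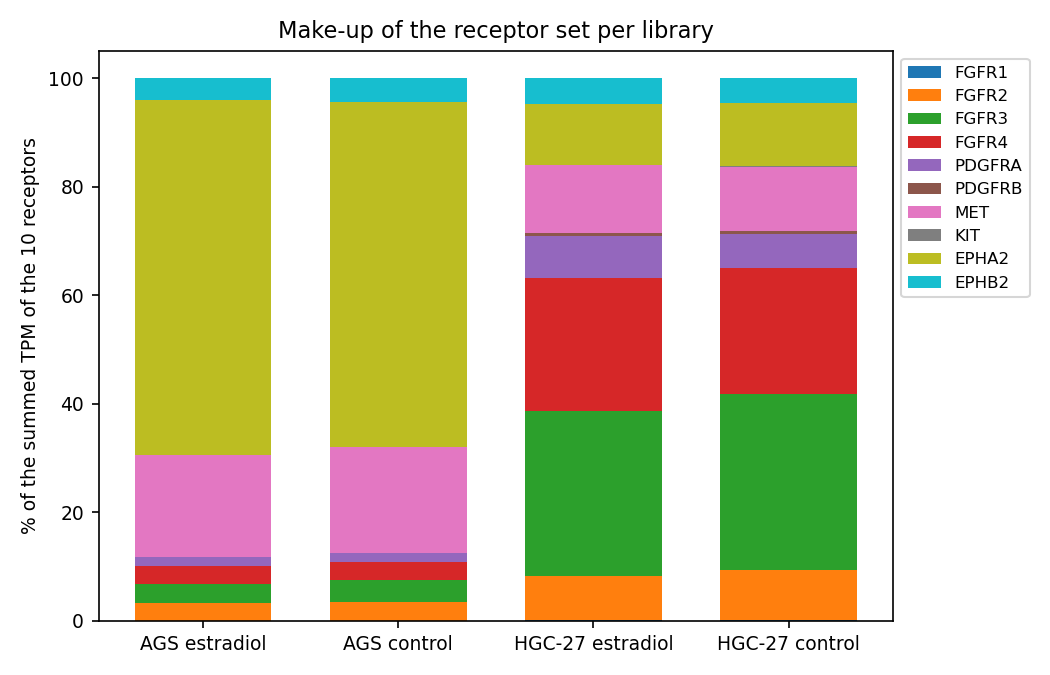
Stacked bars of the share (%) of each receptor in the summed TPM of the 10 receptors, for the estradiol and control library of AGS and of HGC-27 (1 library per bar). EPHA2 fills 65.3% and 63.6% of the AGS bars, and FGFR3 with FGFR4 forms the largest block of the HGC-27 bars.

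In AGS the order by TPM was EPHA2, MET, EPHB2 and FGFR3, then FGFR2 and FGFR4, then PDGFRA, with PDGFRB, FGFR1 and KIT at the bottom. FGFR2 and FGFR4 changed places between the AGS libraries (14.4 and 14.0 TPM for FGFR2, 14.5 and 13.7 TPM for FGFR4, estradiol and control), so they did not differ beyond their spread. In HGC-27 the order was FGFR3, FGFR4, MET, EPHA2, FGFR2, PDGFRA, EPHB2, PDGFRB, FGFR1 and KIT in both libraries. MET (24.8 and 23.4 TPM) and EPHA2 (22.8 and 22.9 TPM) lay close together there. Neighbouring places in both orders depend on the length used, the first place in HGC-27 among them. With the longest GENCODE 29 transcript in place of the deposited length, an alternative chosen after seeing the data, FGFR4 averaged 56.7 TPM and FGFR3 53.0 TPM in HGC-27, with FGFR2 at 23.0 TPM above MET at 19.8 TPM. In AGS the same change put FGFR2 (19.3 TPM) and FGFR4 (17.1 TPM) above EPHB2 (16.6 TPM) and FGFR3 (13.9 TPM). EPHA2 and MET stayed first and second in AGS under either length, at 226 and 68.2 TPM by the longest transcript. Among all genes of the table, EPHA2 ranked 346 and 408 by TPM in the estradiol and control AGS libraries, and 6116 and 6060 in the HGC-27 pair.

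**Figure D2:**
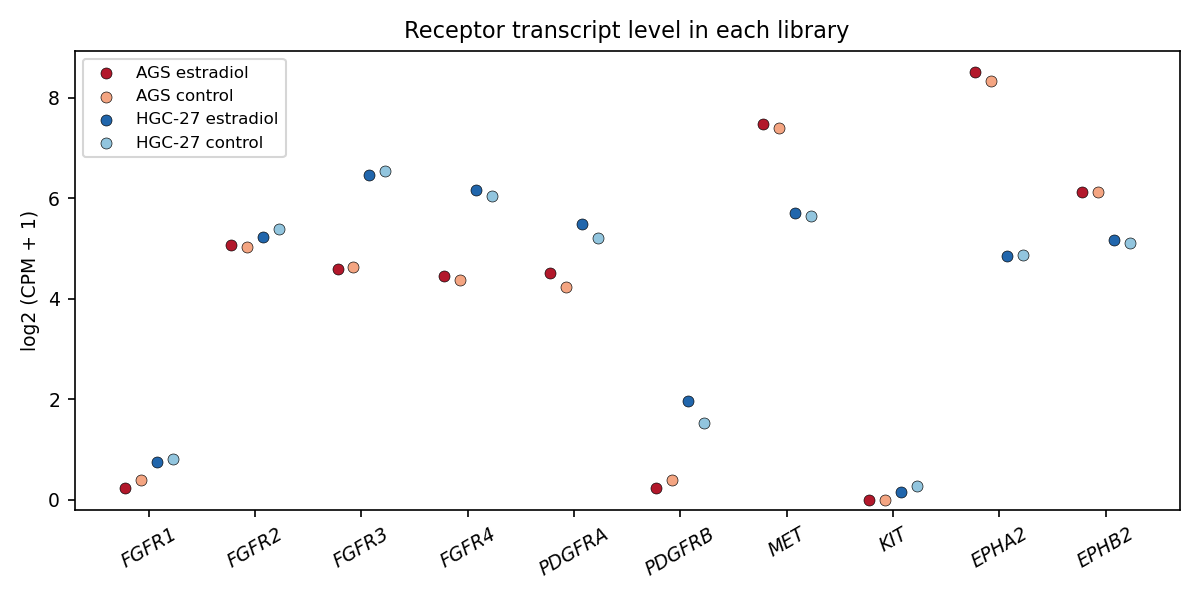
Transcript level of each receptor as log2 (CPM + 1) in each of the 4 libraries, 1 point per library. The points of a line lie close together for most receptors, EPHA2 and MET are highest in AGS, FGFR3 and FGFR4 are highest in HGC-27, and KIT lies at 0 in both AGS libraries.

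The comparison of AGS with HGC-27 asked which receptors differ between the lines, over 2 libraries per line that differ in treatment. A quasi-likelihood test in edgeR with treatment as a term called 3 of the 10 receptors higher in AGS (EPHA2, MET and EPHB2) and 6 lower (PDGFRB, FGFR3, FGFR4, FGFR1, PDGFRA and FGFR2), at an adjusted p of 0.05 over 18278 genes. The lines differ in most genes: 35.7% of all tested genes were called higher in AGS and 41.5% lower, 77.2% together, so a call between them is common. The median log2 difference of all tested genes was -0.10. Of the 10 receptors, 7 were above the filter of 0.368 CPM (a gene's counts scaled to the size of its library) in all 4 libraries. Of these 7, 3 were called higher in AGS and 4 lower. FGFR1 and PDGFRB passed it through HGC-27 alone, so that their direction was set by the filter and their calls carry no weight, and KIT did not pass. In bulk RNA, fewer expressing cells and less RNA per cell cannot be told apart.

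EPHA2, an ephrin-A receptor of epithelial cells (ENSG00000142627, chromosome 1, 16124337 to 16156087, minus strand), had the largest log2 difference in favour of AGS among the 9 tested receptors. It had 10038 and 8348 counts in the estradiol and control AGS libraries, and 698 and 822 in the HGC-27 pair. In CPM, on TMM-scaled library sizes, this was 363 and 321 in AGS against 27.9 and 28.4 in HGC-27. The AGS libraries were far above the HGC-27 libraries, with no overlap. The log2 difference, AGS minus HGC-27, was 3.60 ± 0.063 (SE), a fold of 12.1 (edgeR adjusted p = 1.36e-191). An antisense gene on the opposite strand of EPHA2, AL451042.2, had 8 and 7 counts in AGS cells and 2 and 2 in HGC-27 cells. The strand setting of the counting is not stated, so reads of such pairs cannot be told apart.

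MET, the HGF receptor (ENSG00000105976, chromosome 7, 116672390 to 116798386, plus strand), had 4925 and 4335 counts in the estradiol and control AGS libraries, and 1287 and 1422 in the HGC-27 pair. The levels were 178 and 167 CPM in AGS against 51.5 and 49.2 CPM in HGC-27, and the groups did not overlap. The log2 difference was 1.78 ± 0.061 (SE), a fold of 3.43 (edgeR adjusted p = 4.29e-99). EPHB2, an ephrin-B receptor (ENSG00000133216, chromosome 1, 22710839 to 22921500, plus strand), had 1895 and 1784 counts in AGS cells, and 874 and 964 in HGC-27 cells. Its levels of 68.6 and 68.7 CPM in AGS lay above the 35.0 and 33.3 CPM in HGC-27, a log2 difference of 1.01 ± 0.074 (SE) or a fold of 2.01 (edgeR adjusted p = 2.77e-34).

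FGFR3 (ENSG00000068078, chromosome 4, 1793293 to 1808872, plus strand) had 642 and 617 counts in the estradiol and control AGS libraries, and 2184 and 2679 in the HGC-27 pair. It stood at 23.2 and 23.7 CPM in AGS, below the 87.4 and 92.6 CPM in HGC-27, without overlap. The log2 difference was -1.94 ± 0.075 (SE; edgeR adjusted p = 2.22e-86). FGFR4, the FGF receptor that pairs with beta-klotho for FGF19 in the liver (ENSG00000160867, chromosome 5, 177086886 to 177098144, plus strand), followed FGFR3. It had 577 and 515 counts in AGS cells, and 1756 and 1886 in HGC-27 cells. At 20.9 and 19.8 CPM in AGS against 70.3 and 65.2 CPM in HGC-27, its log2 difference was -1.73 ± 0.081 (SE; edgeR adjusted p = 2.29e-67). The fold in favour of HGC-27 was 3.83 for FGFR3 and 3.33 for FGFR4.

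FGFR2 (ENSG00000066468, chromosome 10, 121478334 to 121598458, minus strand) was close to level between the lines. It had 897 and 826 counts in the estradiol and control AGS libraries, and 912 and 1174 in the HGC-27 pair. The levels were 32.4 and 31.8 CPM in AGS and 36.5 and 40.6 CPM in HGC-27, and the log2 difference of -0.26 ± 0.084 (SE; edgeR adjusted p = 0.00299) lay near the median of all tested genes. In DESeq2 the adjusted p was 0.0678, and without the HGC-27 control library edgeR gave a log2 difference of -0.19 (adjusted p = 0.101). The counts are per gene, so the epithelial and mesenchymal splice forms of FGFR2 cannot be told apart here. FGFR1 (ENSG00000077782, chromosome 8, 38411138 to 38468834, minus strand) was barely detected. It had 5 and 8 counts in AGS cells, and 17 and 22 in HGC-27 cells, where 3 counts correspond to 0.104 to 0.120 CPM. Its log2 difference of -1.56 ± 0.68 (SE; edgeR adjusted p = 0.0311) kept its size but not its call in DESeq2 (-1.58, adjusted p = 0.0772) and in edgeR without the filter (-1.55, adjusted p = 0.0731). The edgeR call was also lost without the AGS estradiol (-1.22, adjusted p = 0.0792), the HGC-27 estradiol (-1.62, adjusted p = 0.0652) or the HGC-27 control library (-1.47, adjusted p = 0.111).

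PDGFRA (ENSG00000134853, chromosome 4, 54229097 to 54298247, plus strand) had 600 and 465 counts in the estradiol and control AGS libraries, and 1099 and 1047 in the HGC-27 pair. Its levels of 21.7 and 17.9 CPM in AGS lay below the 44.0 and 36.2 CPM in HGC-27, without overlap. The log2 difference was -1.02 ± 0.092 (SE; edgeR adjusted p = 1.95e-24). A gene on the same strand, AC058822.1, overlaps PDGFRA and had 0 counts in all 4 libraries. Of the 31-base stretches of the longest PDGFRA transcript 23.0% also lie in transcripts of other genes, with AC058822.1 sharing the most, so counts from there are uncertain. PDGFRB (ENSG00000113721, chromosome 5, 150113837 to 150155872, minus strand) had 5 and 8 counts in AGS cells, and 72 and 55 in HGC-27 cells. That is 0.181 and 0.308 CPM in AGS against 2.88 and 1.90 CPM in HGC-27, and the fit gave -3.25 ± 0.51 (log2 difference with SE). Its direction was set by the filter, so the levels are given as a description. Of 8 fibroblast and pericyte markers 8 were also lower in AGS, where they summed to 7.0 and 7.47 TPM against 2220 and 2110 TPM in HGC-27. DCN, LUM and THY1 were at 0 in both AGS libraries. These 3 markers and COL3A1 passed the filter through HGC-27 alone, so their direction was set by it as well. Among all tested genes, 41.5% were called lower in AGS. Their part in the PDGFRA and PDGFRB differences was not tested.

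KIT (ENSG00000157404, chromosome 4, 54657918 to 54740715, plus strand) had 0 counts in both AGS libraries, and 3 and 6 in the estradiol and control libraries of HGC-27. A count of 0 allows up to 0.109 CPM in AGS with estradiol and 0.115 CPM in the AGS control, for counting error only, so KIT was not detectable in AGS at this depth. Fitted without the filter, KIT was not called between the lines (edgeR adjusted p = 0.189). Among the mast cell and interstitial cell markers, MS4A2 was at 0 in all 4 libraries and TPSAB1, TPSB2, CPA3 and HDC had at most 3 counts. ANO1, a chloride channel that interstitial cells of Cajal also carry, was the exception with 2548 and 2245 counts in AGS cells and 4 and 8 in HGC-27 cells.

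**Figure D3:**
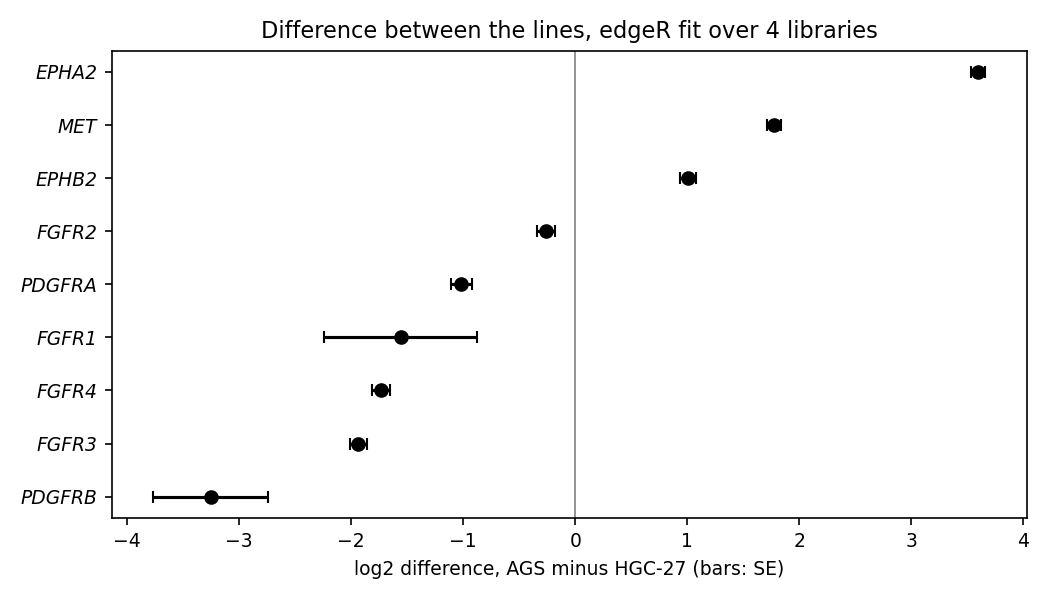
Log2 difference of each of the 9 tested receptors, AGS minus HGC-27, from the edgeR fit over 4 libraries; bars are SEs. EPHA2, MET and EPHB2 lie above 0, the other receptors below it, and the widest bars belong to FGFR1 and PDGFRB, which have few counts.

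The sequence upstream of an annotated start is printed for 6 of the 7 receptors with the largest log2 differences between the lines, leaving out FGFR1, to show what kind of promoter each carries. The windows are the 250 bases before a start, from RefSeq on GRCh38.p14. RefSeq windows of 9 of the 10 receptors were used, with 16 windows in all. FGFR1 was left out of this set, so the counts of receptor windows below do not cover it. Capitals mark GC boxes, the letters GGGCGG on either strand, which factors of the SP family are known to bind. Only windows with at most 30 bases in GENCODE 29 exons are printed, which leaves out the first start of PDGFRA, and for FGFR4 the first start is shown.
EPHA2, chr1:16156070-16156319, minus strand: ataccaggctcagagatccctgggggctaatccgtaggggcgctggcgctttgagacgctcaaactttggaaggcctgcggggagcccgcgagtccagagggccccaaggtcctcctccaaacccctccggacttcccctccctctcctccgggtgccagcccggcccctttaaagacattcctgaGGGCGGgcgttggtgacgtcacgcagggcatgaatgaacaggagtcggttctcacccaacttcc
PDGFRB, chr5:150155846-150156095, minus strand: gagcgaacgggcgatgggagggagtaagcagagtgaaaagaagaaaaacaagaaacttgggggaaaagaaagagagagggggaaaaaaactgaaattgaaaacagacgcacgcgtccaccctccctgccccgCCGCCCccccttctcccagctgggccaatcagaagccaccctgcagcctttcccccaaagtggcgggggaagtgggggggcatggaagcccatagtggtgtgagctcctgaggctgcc
MET, chr7:116671946-116672195, plus strand: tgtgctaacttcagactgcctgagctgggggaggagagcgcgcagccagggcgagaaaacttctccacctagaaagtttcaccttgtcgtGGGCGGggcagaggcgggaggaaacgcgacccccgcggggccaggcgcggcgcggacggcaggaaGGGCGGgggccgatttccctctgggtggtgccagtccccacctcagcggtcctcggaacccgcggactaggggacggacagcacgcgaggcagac
FGFR3, chr4:1793043-1793292, plus strand: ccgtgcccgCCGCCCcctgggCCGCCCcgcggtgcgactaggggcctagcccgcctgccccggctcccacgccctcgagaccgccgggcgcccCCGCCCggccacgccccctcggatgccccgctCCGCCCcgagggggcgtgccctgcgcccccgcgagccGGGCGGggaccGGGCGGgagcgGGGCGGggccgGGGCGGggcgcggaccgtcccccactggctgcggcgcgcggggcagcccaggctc
FGFR4, chr5:177086665-177086914, plus strand: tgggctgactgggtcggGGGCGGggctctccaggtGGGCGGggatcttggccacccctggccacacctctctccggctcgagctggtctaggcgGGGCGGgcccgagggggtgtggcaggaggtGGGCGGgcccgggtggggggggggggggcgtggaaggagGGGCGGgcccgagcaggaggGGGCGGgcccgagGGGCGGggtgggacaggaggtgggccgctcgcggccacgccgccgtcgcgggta
PDGFRA, chr4:54233710-54233959, plus strand: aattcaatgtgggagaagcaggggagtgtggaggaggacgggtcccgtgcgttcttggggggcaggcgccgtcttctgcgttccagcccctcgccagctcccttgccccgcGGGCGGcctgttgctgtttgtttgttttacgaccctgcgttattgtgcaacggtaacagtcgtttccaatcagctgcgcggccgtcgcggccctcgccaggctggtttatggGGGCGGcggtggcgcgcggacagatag
The FGFR3 window held 8 GC boxes and 40 CpG pairs, and the FGFR4 window held 7 and 24. At least 7 GC boxes were present in 1.12% of the 35116 RefSeq windows, a threshold chosen after these windows were seen. The MET window held 2 GC boxes and 24 CpG pairs, the PDGFRA window 2 and 25, the EPHA2 window 1 and 15, and the PDGFRB window 1 and 9. Over all windows the median was 11 CpG pairs, and of the 16 receptor windows 9 lay above it and 7 below. Those below were the PDGFRB window, the first PDGFRA start with 8, the second FGFR4 start with 2, and 4 starts of FGFR2 with 3 to 7. A GC box was present in 42.6% of all windows and in 11 of the 16 receptor windows, several of which overlap or belong to the same gene.
The full oestrogen response element, an inverted repeat searched without mismatches on both strands, was in 0 of the 16 windows and in 0.0399% of all windows. The half-site AGGTCA, on either strand, was in 1 of 16 (a downstream start of FGFR2) and in 12.1% of all windows. The AP-1 letters TGANTCA were in 1 of 16 (the first start of PDGFRA) and in 6.57% of all windows, and TATAAA in 0 of 16 and 10.7%. These letters describe the windows alone and say nothing of binding.

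The ligands and partners of the receptors were described from 10 lists of 135 genes, of which 104 were tested. Of these, 58 were higher in AGS and 32 lower (edgeR, adjusted p under 0.05). The filter fixed the direction of some: 10 of the 104 were above it in AGS alone and 18 in HGC-27 alone. Of the 68 above it in all 4 libraries, 42 were higher in AGS and 14 lower. The counts per list below include genes of both kinds. Over all tested genes 35.7% were called higher in AGS and 41.5% lower, 77.2% together, so these counts are given as a description of the lists.

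FGF ligands were scarce in both lines. Of 22 FGF genes 7 were tested, 2 were higher in AGS and 3 lower. Of these 7, 0 were above the filter in all libraries, 1 was above it in AGS alone and 3 in HGC-27 alone. The list summed to 10.9 and 12.0 TPM in the estradiol and control AGS libraries against 15.1 and 13.3 TPM in the HGC-27 pair. FGF20, a paracrine FGF of the FGF9 subfamily, had 80 and 95 counts in AGS and 0 in both HGC-27 libraries, so it was at least 29.3-fold higher in AGS (against a floor of 3 counts per library). FGF18 was also higher in AGS (2.07 ± 0.48 SE, log2). FGF21, a hormone of fasting that needs beta-klotho, had 4 and 0 counts in AGS cells against 74 and 71 in HGC-27 cells. FGF9 (-2.86 ± 0.42) and the intracellular family member FGF12 (-3.79 ± 0.50) were lower in AGS as well. Of 10 tested FGF coreceptors, binding proteins and decoys 4 were higher in AGS and 5 lower, among them FGFRL1, the FGF receptor without a kinase domain, at -0.29 ± 0.064. Of the 6 above the filter in all libraries 1 was higher and 4 lower.

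PDGF ligands divided by class. PDGFC, which is secreted in a latent form, had 0 counts in both AGS libraries and 1451 and 1799 in the estradiol and control libraries of HGC-27, at least 537-fold lower in AGS. PDGFD, of the same latent type, had 0 counts in AGS cells and 625 and 615 in HGC-27 cells, at least 207-fold lower in AGS. The classical chains went the other way, with PDGFA at 1156 and 967 counts in AGS cells against 384 and 487 in HGC-27 cells (log2 difference 1.29 ± 0.096 SE) and PDGFB at 339 and 258 against 114 and 84 (1.59 ± 0.18). HGC-27 thus held transcripts of PDGFRA with all 4 ligands, and AGS held PDGFRA with PDGFA and PDGFB. The receptor-like gene PDGFRL was higher in AGS (1.19 ± 0.41) and the coreceptor NRP2 lower (-2.20 ± 0.13).

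The KIT ligand KITLG, or stem cell factor, was detected in both lines. It had 1761 and 1783 counts in the estradiol and control AGS libraries, and 586 and 748 in the HGC-27 pair, a log2 difference of 1.42 ± 0.079 (SE). HGF, named after its values were seen because it is the only known ligand of MET, had 0 counts in both AGS libraries and 31 and 25 in HGC-27. Of 7 tested genes of HGF and its processing, 4 were above the filter in AGS alone and 1 in HGC-27 alone, which fixed their direction. Of the 2 above it in all libraries 2 were higher in AGS and 0 lower. Over all 7, 1 was lower in AGS and 6 were higher. These included the MET relative MST1R, also called RON, with 2697 and 2523 counts in AGS cells against 4 and 2 in HGC-27 cells, and its ligand MST1 (0.93 ± 0.34). The list summed to 1000 and 1020 TPM in AGS against 2.05 and 2.0 TPM in HGC-27. The genes that made up most of it were named after their values were seen. The protease ST14, or matriptase, which can activate HGF, had 381 and 389 TPM in AGS, and its inhibitors SPINT1 (270 and 266 TPM) and SPINT2 (288 and 302 TPM) had more together.

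Ephrins, the membrane-bound ligands of EPH receptors, differed between the lines in both directions. Of 8 ephrins 3 were higher in AGS and 3 lower, and of the 7 above the filter in all libraries 3 were higher and 2 lower. EFNB2, a ligand of EPHB2 and EPHB4, had 7475 and 6500 counts in AGS cells against 166 and 187 in HGC-27 cells, a log2 difference of 5.31 ± 0.078 (SE). EFNA1, the main known ligand of EPHA2, had 1414 and 1545 counts in AGS cells against 483 and 572 in HGC-27 cells (1.499 ± 0.085), and EFNA4 was slightly higher in AGS (0.31 ± 0.11). Lower in AGS were EFNB3, with 0 and 3 counts against 525 and 486 in HGC-27, EFNA5 (-4.38 ± 0.15) and EFNB1 (-1.18 ± 0.11).

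**Figure D4:**
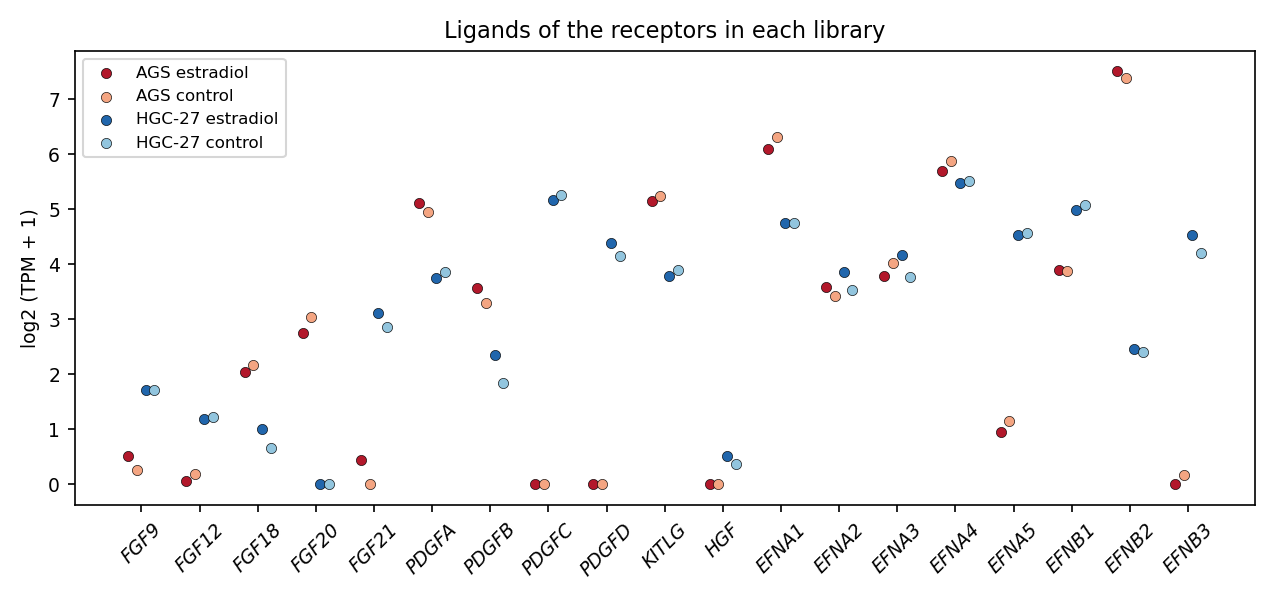
Level of ligands of the receptors as log2 (TPM + 1) in each of the 4 libraries, 1 point per library: FGF, PDGF, KIT and MET ligands on the left and ephrins on the right. PDGFC, PDGFD and HGF lie at 0 in both AGS libraries, FGF20 lies at 0 in both HGC-27 libraries, and EFNB2 has the highest AGS points.

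Of 11 other EPH receptors tested 4 were higher in AGS and 5 lower. The filter fixed the direction of some, as 1 was above it in AGS alone and 5 in HGC-27 alone. Of the 4 above it in all libraries 2 were higher in AGS and 0 lower. EPHA1 had 2392 and 2411 counts in the estradiol and control AGS libraries, and 2 and 12 in the HGC-27 pair. EPHA3 was the reverse, with 0 counts in both AGS libraries and 1657 and 1935 in HGC-27, at least 595-fold lower in AGS, as was EPHA5 with 0 in AGS and 224 and 256 in HGC-27 (at least 79.5-fold lower). EPHA4 (4.27 ± 0.12, log2 difference with SE) and EPHB4 (0.85 ± 0.059) were higher in AGS. Of 14 other receptor tyrosine kinases tested, 8 were above the filter in all libraries, and 4 of these were higher in AGS and 3 lower. Over all 14, with 2 above it in AGS alone and 4 in HGC-27 alone, 6 were higher in AGS and 7 lower. Among the 6 with the largest differences were ROR2, a Wnt5a receptor (0 counts in AGS, 1379 and 1371 in HGC-27), NTRK2 (0 in AGS, 340 and 431 in HGC-27) and the collagen receptor DDR2 (25 and 26 against 11066 and 11970). STYK1 had 128 and 157 counts in AGS and 0 in both HGC-27 libraries, and LTK (2 and 0 against 338 and 370) and AXL (93 and 45 against 928 and 1085) were lower in AGS.

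The kinase whose profile over the 4 libraries lay nearest to each receptor was sought among 19 other EPH receptors and receptor kinases with a mean of at least 1 CPM, by the Euclidean distance of centred log2 (CPM + 1). EPHA2 was nearest to EPHA4 (distance 0.405), which had 1503 and 1478 counts in AGS cells against 81 and 74 in HGC-27 cells. MET was nearest to ROR1 (0.223), EPHB2 to EPHB4 (0.144) and FGFR2 to EPHB3 (0.138). FGFR3 (1.38), FGFR4 (1.17), PDGFRA (0.528) and PDGFRB (0.962) all had PTK7 as the nearest, a kinase-like receptor of the Wnt pathway that was lower in AGS by a log2 difference of -0.52 ± 0.054 (SE). For FGFR3 and FGFR4 the distance was large, so no kinase on the list followed them closely. PDGFRB differed by -3.25 in the fit, far from the -0.52 of PTK7. At 0.181 to 2.88 CPM the added 1 flattens its profile, so its distance does not show a close match. With 4 libraries these distances mostly describe the difference between the lines.

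Downstream of the receptors, 14 of 20 docking and adaptor genes were higher in AGS and 3 lower, with a median log2 difference of 0.39 against -0.10 for all tested genes. The shares over all tested genes were 35.7% called higher in AGS and 41.5% lower. Of 19 tested genes of receptor feedback and turnover, such as the Sprouty and DUSP inhibitors, 15 were higher in AGS and 2 lower, and of the 15 above the filter in all libraries 12 were higher and 1 lower. That list summed to 603 and 552 TPM in the estradiol and control AGS libraries, against 262 and 253 TPM in the HGC-27 pair.

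The second comparison asked whether the receptors changed with estradiol over both lines, with the line as a block. None passed: 0 of 9 tested receptors were higher and 0 lower in edgeR, against 0.153% of all tested genes called (0.115% higher and 0.0383% lower). DESeq2 and limma-voom also called 0. At an unadjusted p under 0.05, 1 receptor was higher and 0 lower in each of these 3 tests. Over all 18278 genes, 340 were higher and 253 lower at that threshold in edgeR, 74 and 71 in DESeq2, and 303 and 187 in limma-voom. In edgeR the 1 receptor was PDGFRA, with a log2 change of 0.28 ± 0.091 (SE), a fold of 1.21, and an edgeR adjusted p = 0.556, so it did not pass over all genes. Over the alternative settings with a test, its adjusted p was 0.369 to 1. The other log2 changes were 0.11 ± 0.060 (SE) for EPHA2, 0.095 ± 0.080 for FGFR4, 0.083 ± 0.060 for MET, 0.030 ± 0.074 for EPHB2, -0.063 ± 0.073 for FGFR3 and -0.064 ± 0.084 for FGFR2. PDGFRB (0.30 ± 0.48) and FGFR1 (-0.37 ± 0.67) had SEs wider than their changes. Of the 104 tested ligands, relatives and downstream genes, 0 were called higher and 0 lower with estradiol in edgeR.

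Within a line there was 1 library per condition, so the ratio of estradiol over control is given with a 95% counting interval and no test. Among genes with a mean of at least 100 counts, the interval lay above 0 for 14.2% and below 0 for 15.5% of genes in AGS, and above 0 for 10.8% and below 0 for 14.6% in HGC-27. Of 7 receptors with that many counts, 3 lay above 0 and 0 below in AGS, and 2 lay above and 2 below in HGC-27. PDGFRA lay above 0 in both lines, at 0.28 (0.10 to 0.46) in AGS and 0.28 (0.16 to 0.40) in HGC-27 on the log2 scale. Genes with a higher ratio than PDGFRA made up 3.03% in AGS and 4.5% in HGC-27.

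In AGS the interval also lay above 0 for EPHA2, at 0.18 (0.14 to 0.22), and for MET, at 0.095 (0.036 to 0.15). EPHA2 stood at -0.025 (-0.17 to 0.12) in HGC-27 and MET at 0.067 (-0.043 to 0.18). In HGC-27 FGFR4 lay above 0, at 0.11 (0.013 to 0.20), while FGFR2, at -0.15 (-0.28 to -0.027), and FGFR3, at -0.084 (-0.17 to -0.0018), lay below. The FGFR3 interval ended just short of 0, and with library sizes scaled by raw totals its upper end was 0.012. In AGS the same receptors stood at 0.075 (FGFR4), 0.030 (FGFR2) and -0.032 (FGFR3), with intervals that included 0. PDGFRB had under 100 counts in every library and stood at 0.60 (0.073 to 1.13) in HGC-27 and -0.72 (-2.73 to 1.03) in AGS. Whether ratios differ between the lines could not be tested with 1 library per condition in each line.

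**Figure D5:**
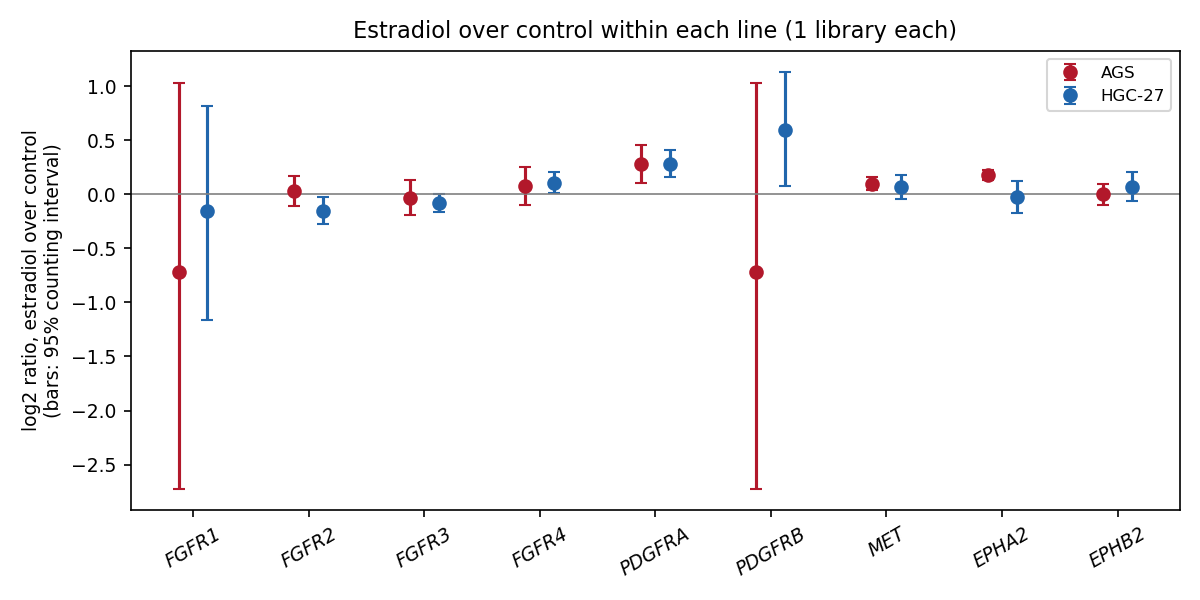
Log2 ratio of estradiol over control within AGS and within HGC-27 for the 9 tested receptors; bars are 95% counting intervals from 1 library per condition, and cover counting error only. PDGFRA is at 0.28 in both lines, EPHA2 is above 0 in AGS alone, and the long bars of FGFR1 and PDGFRB reflect few counts.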

How the data were processed

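RNA of AGS and HGC-27 cells, with and without 1 day in 10 nM estradiol, was extracted with TRIzol, per the labels' protocols, and libraries followed an NEB protocol. The submitters' processing notes name HISAT2 and featureCounts, without versions; the strand setting and the handling of multiply matching reads are not stated. The authors deposited raw counts per gene, with no normalization, and a gene length in bases. The notes name the build hg18, but 57475 of 58336 deposited genes have the start and end of GENCODE 29 on GRCh38, so coordinates are given as GRCh38 as the table gives them; the FGFR1 span differs from GENCODE 29.

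The test was edgeR 4.0.16 under R 4.3.3 (TMM, filterByExpr, quasi-likelihood F-test, line plus treatment in 1 fit of 4 libraries, Benjamini-Hochberg over 18278 genes, threshold 0.05). The number in a library name marks the line, so same-numbered libraries are paired. Libraries of 1 line correlated at 0.997 in each line (log2 CPM + 1, tested genes), against 0.777 to 0.781 between the lines. The fit leaves 1 residual degree of freedom and 396.9 prior degrees, so the spread behind SEs and p-values is nearly all pooled from other genes. SEs were derived from the log2 value and its F statistic. Ratios within a line used a prior of 0.5 counts and an exact conditional binomial interval. No molecular identifiers are named, so intervals and floors cover counting error only. TPM were computed from counts and deposited lengths. The fit was tested on simulated data.

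All 10 receptors are named. Of the lists, ligands and other receptors called between the lines with a mean of at least 1 CPM are named, at most 6 a list. The receptors and lists were chosen with earlier results of these data known. Alternatives were RLE factors, no filter, DESeq2 1.42.0, limma-voom 3.58.1, protein-coding genes alone, leaving out the other model term and leaving out each library.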

Additional observations from a re-analysis of the deposited data

Results flagged for a closer look

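For 4 of the 9 tested receptors the estradiol over control ratio had opposite signs in the lines, with 1 library per condition in each line, and the difference between the lines was not tested. Among genes with a mean of at least 100 counts the median log2 ratio was -0.0037 in AGS and -0.0084 in HGC-27. The share of all genes with opposite signs was not counted, so the 4 receptors are given as a description. On the log2 scale EPHA2 had 0.177 within AGS and -0.025 within HGC-27. FGFR2 had 0.030 within AGS and -0.153 within HGC-27. EPHB2 had -0.00185 within AGS and 0.070 within HGC-27, both with intervals that include 0. PDGFRB had -0.717 within AGS, from 5 counts with estradiol and 8 in the control, and 0.596 within HGC-27, from 72 and 55.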

How the results depend on the processing

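Of 90 receptor differences between the lines recomputed under the alternatives, 83 kept their direction and their side of the threshold and 7 fell short of it, all of them for FGFR1 and FGFR2; 0 changed sign. The number of receptors called higher in AGS was 3 under every alternative run, and the number called lower was 4 to 6 (4 in DESeq2 and without the HGC-27 control library). Over the libraries left out in turn, 3 receptors were called higher each time and 4 to 6 lower. For estradiol, 0 receptors were called under any alternative with a test. Without the block, 0 receptors and 0 of all genes were called in either direction (1 gene higher and 1 lower at an unadjusted p under 0.05). The pairing by line changed no receptor call. Over all genes, 21 were higher and 7 lower with estradiol in edgeR, 1 and 0 in DESeq2, and 0 and 0 in limma-voom (303 and 187 at an unadjusted p under 0.05), while with protein-coding genes alone 4 were lower; the cause was not tested. Leaving out a library leaves no residual degrees of freedom for estradiol, so only the remaining line's value was taken; for PDGFRB this was -0.72 without either HGC-27 library, against 0.30 over both lines. Depth limits KIT and FGFR1 in both lines and PDGFRB in AGS.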
